A study of Mus musculus with 12 samples.

Results

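The genes that make cholesterol and fatty acids were examined in mouse BMDMs, bone marrow cells matured into macrophages with macrophage colony-stimulating factor. The 32 genes are enzymes and regulators of these pathways, chosen by symbol, and each was found through the symbol that belongs to its Ensembl identifier. All 32 were present among the 48526 genes of the table, of which 23413 had at least 1 count. All 32 also passed the filter of the test, at least 10 counts in at least 3 libraries, which left 12421 genes.

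The cells came from 3 female C57Bl/6J mice, for which the labels give no engineered allele and no age, and were at culture day 7. From every mouse there was an untreated culture and cultures that received 100 ng/mL Wnt3a, a secreted activator of the Wnt pathway, 100 pg/mL IL-4, a cytokine of alternative macrophage activation, or both for 16 hr. The study asked how Wnt signaling alters the macrophage response to IL-4. The deposited values are raw read counts per gene, 12 columns in 4 groups of 3.

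The columns labelled Wnt3a and Wnt3a+IL4 were not used as separate libraries, because they are not independent. In all 3 mice, 0 of 48526 genes had a Wnt3a count under 1 time or over 2 times that of the Wnt3a+IL4 column. The part called the difference is the Wnt3a column minus the Wnt3a+IL4 column of a mouse, and the part called the remainder is the Wnt3a+IL4 column minus the difference. On this reading both parts stand for Wnt3a-treated cells, 1 without and 1 with IL-4. Which part is which is not given by the labels and was not taken from the values, so the effect of Wnt3a alone and that of Wnt3a with IL-4 cannot be told apart here by name.

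Cholesterol is built from acetyl-CoA by way of mevalonate, farnesyl diphosphate, squalene and lanosterol, and fatty acids are built from the same acetyl-CoA through malonyl-CoA. The genes of both routes are controlled by the SREBP transcription factors, which Scap escorts from the endoplasmic reticulum when membrane sterol is low and which the Insig proteins hold back when sterol is plentiful. SREBP-2, from Srebf2, acts mainly on sterol genes, and SREBP-1, from Srebf1, mainly on fatty acid genes, while the LXR receptors turn on sterol export in macrophages loaded with cholesterol.

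Depth was between 13342492 and 17113982 counts for the untreated and IL-4 libraries and between 14171994 and 17453377 for the parts. The 7 macrophage markers examined, among them Csf1r, Adgre1 and Lyz2, summed to between 45280 and 65680 CPM, counts scaled to a common library size, in every library. The 3 T cell, 3 B cell, 3 mast cell and basophil, 4 adipocyte and 2 erythroid markers summed to no more than 5.29, 0.375, 0.534, 0.584 and 0.229 CPM in any library. The 5 stromal markers summed to between 5.57 and 31.1 CPM, with overlap of all groups. The 6 neutrophil markers summed to between 26.7 and 35.4 CPM in untreated, 32.5 and 42.7 in IL-4, 20.1 and 31.9 in difference and 19.4 and 20.5 in remainder libraries, the last below all untreated and IL-4 libraries. The 3 dendritic cell markers summed to between 0.585 and 0.881 CPM in untreated libraries, and to between 1.03 and 1.20 in IL-4, 0.565 and 1.15 in difference and 1.12 and 2.01 in remainder libraries. The T cell sum was lower in IL-4 libraries (1.75 to 2.63 CPM) than in untreated ones (3.99 to 4.25). It was nearly all Cd4, since Cd3e had at most 1 count and Cd8a 0 in any library. The macrophage sum was also lower in IL-4 libraries (45280 to 50520 against 55350 to 59420). Most of it was Lyz2, with 683438, 605589 and 471230 raw counts in IL-4 and 773382, 729405 and 758976 in untreated libraries. The sum therefore mainly stands for this gene. The mast cell sum was higher in both parts (0.115 to 0.534 and 0.118 to 0.318 CPM) than in untreated libraries (at most 0.065). In the parts it was Cpa3 alone, with 2, 9 and 3 raw counts in the difference and 2, 3 and 5 in the remainder. The part of these markers in the results was not tested. In bulk RNA, a change in the share of cells that express a gene and a change in RNA per cell cannot be told apart.

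The 32 genes together took between 0.123% and 0.125% of all counts in untreated libraries and between 0.128% and 0.138% in IL-4 libraries. Their share was between 0.174% and 0.182% in the difference and between 0.167% and 0.182% in the remainder. Neither part overlapped the untreated or the IL-4 libraries in this share. Levels below are in CPM scaled by edgeR's TMM method, in the order mouse 1, 2 and 3, and fold changes are from edgeR's quasi-likelihood test over the 12421 genes with Benjamini-Hochberg adjustment. A gene was called at an adjusted p under 0.05.

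**Figure D1:**
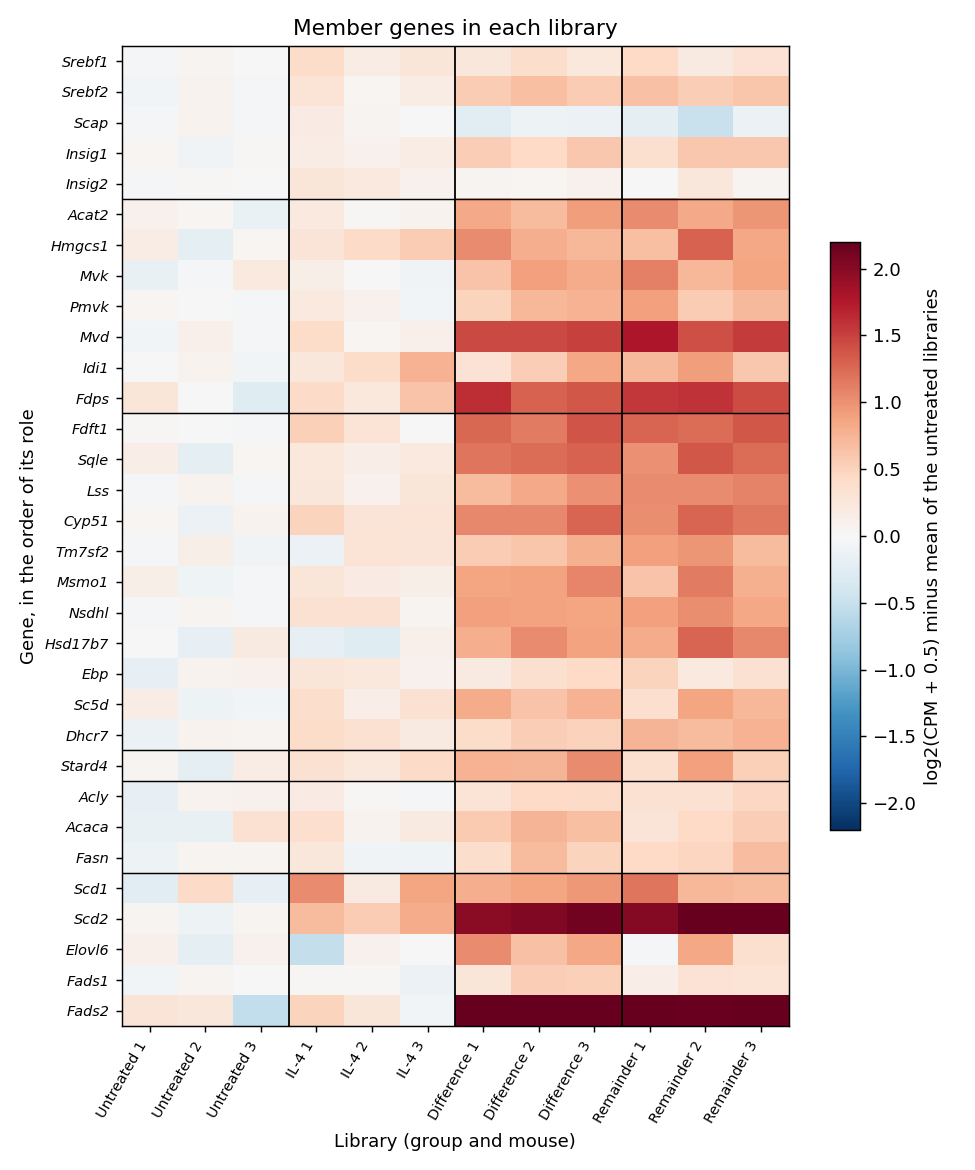
Each row is a gene, ordered by role (regulators, steps to farnesyl diphosphate, steps from squalene, sterol transfer, fatty acid synthesis, desaturation and elongation), and each column a library. The color is log2(CPM + 0.5) minus the mean of the 3 untreated libraries, so that red stands above and blue below them. The difference and remainder columns are red in nearly all rows, with Scap the exception, and the IL-4 columns are pale apart from Scd1, Scd2 and Idi1. Colors saturate at the ends of the scale, which the Fads2 and Scd2 values reach.

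The difference was higher than untreated in 30 of the 32 genes and lower in 0, while 11.8% of all tested genes were called higher, 11.4% lower and 23.2% in either direction. The remainder was higher than untreated in 29 genes and lower in 0, beside 13.6% of all genes called higher, 11.7% lower and 25.3% in either direction. The median log2 fold change over the 32 genes was 0.86 in the difference, where all tested genes had -0.01, and 0.89 in the remainder, where they had -0.02. All 3 libraries lay above all 3 untreated libraries for 31 genes in the difference, against 19.5% of tested genes, and for 28 genes in the remainder, against 18.9%. Both comparisons use the same untreated libraries. The genes not called were Scap and Insig2 in both and Elovl6 in the remainder.

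**Figure D2:**
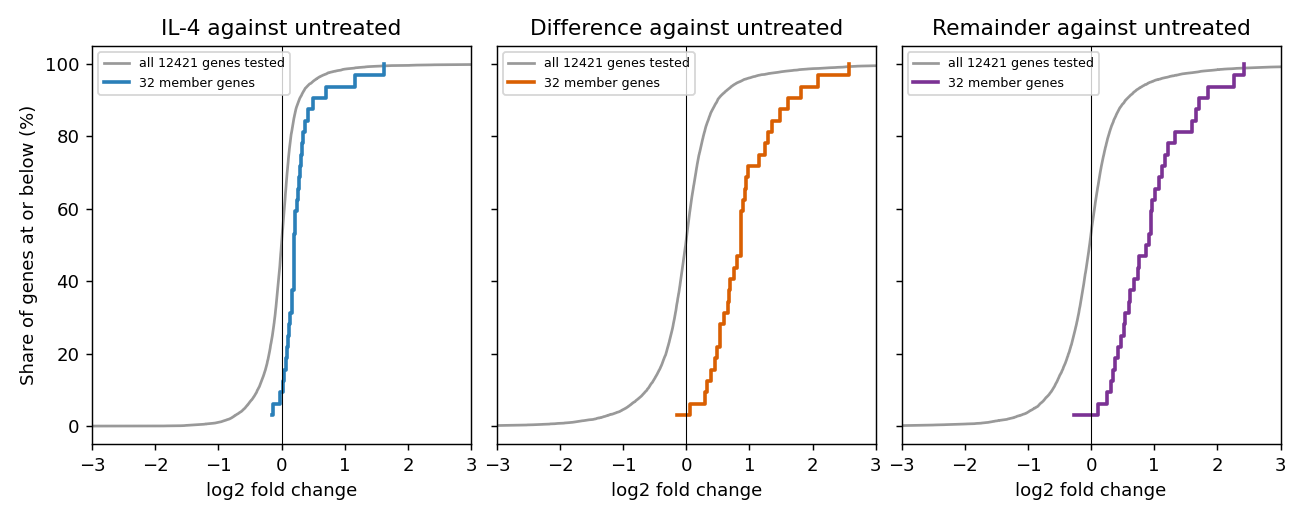
The colored line gives the share of the 32 genes (vertical axis, in percent) at or below each log2 fold change (horizontal axis), and the grey line the same for the 12421 genes tested, in a panel for each comparison with untreated cells. The medians of the 32 genes are 0.20 for IL-4, 0.86 for the difference and 0.89 for the remainder, while the grey lines cross the middle near 0.

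Among the regulators, both SREBP genes and Insig1 rose in both parts, and Scap and Insig2 were not called. Srebf2 had 145, 159 and 149 CPM in untreated cells, 222, 237 and 222 in the difference and 235, 219 and 231 in the remainder. It rose by 0.59 ± 0.08 (SE) on the log2 scale in the difference (adjusted p = 7.4e-05) and by 0.60 ± 0.08 in the remainder (adjusted p = 5.2e-05), with no overlap of the groups. Srebf1 changed less, by 0.29 ± 0.09 (adjusted p = 0.023) and 0.32 ± 0.09 (adjusted p = 0.013), from 83.7 ± 3.44 CPM (SD, n = 3) to 102 ± 6.03 and 105 ± 9.21. Without mouse 1 or without mouse 3 the Srebf1 call was lost in both parts (adjusted p between 0.058 and 0.18), and without mouse 2 it was lost in the difference (adjusted p = 0.080).

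Insig1, whose own transcription depends on SREBP and whose protein retains Scap, had 35.3, 32.5 and 35.1 CPM in untreated cells, 50.4, 46.8 and 52 in the difference and 43.9, 51.9 and 51.8 in the remainder. Its log2 fold changes were 0.54 ± 0.09 (adjusted p = 0.00048) and 0.52 ± 0.09 (adjusted p = 0.00052), and neither part overlapped untreated cells. Insig2, the other retention protein, stayed within a narrow range, with 28.4 ± 0.53 CPM (SD, n = 3) in untreated cells, 29.7 ± 0.56 in the difference and 30.8 ± 2.86 in the remainder. The 95% intervals of its log2 fold changes ran from -0.13 to 0.26 and from -0.08 to 0.31.

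Scap was the member whose fitted fold change was below 0 in both parts. It had 75.1, 81.2 and 74.3 CPM in untreated cells, 65.6, 71.2 and 70.5 in the difference and 67.1, 54.3 and 70.1 in the remainder, and all 6 values of the parts lay below the untreated ones. The log2 fold changes were -0.15 ± 0.09 (adjusted p = 0.27) and -0.27 ± 0.09 (adjusted p = 0.052), so neither passed the threshold. With total counts as the scaling, which puts the median of all tested genes at -0.10 in the difference and -0.13 in the remainder, both passed it (-0.24, adjusted p = 0.041, and -0.38, adjusted p = 0.0038). Of the Scap exon bases, 13.2% overlap a gene on the other strand, and 9.96% of its 50-base stretches occur in another gene.

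**Figure D3:**
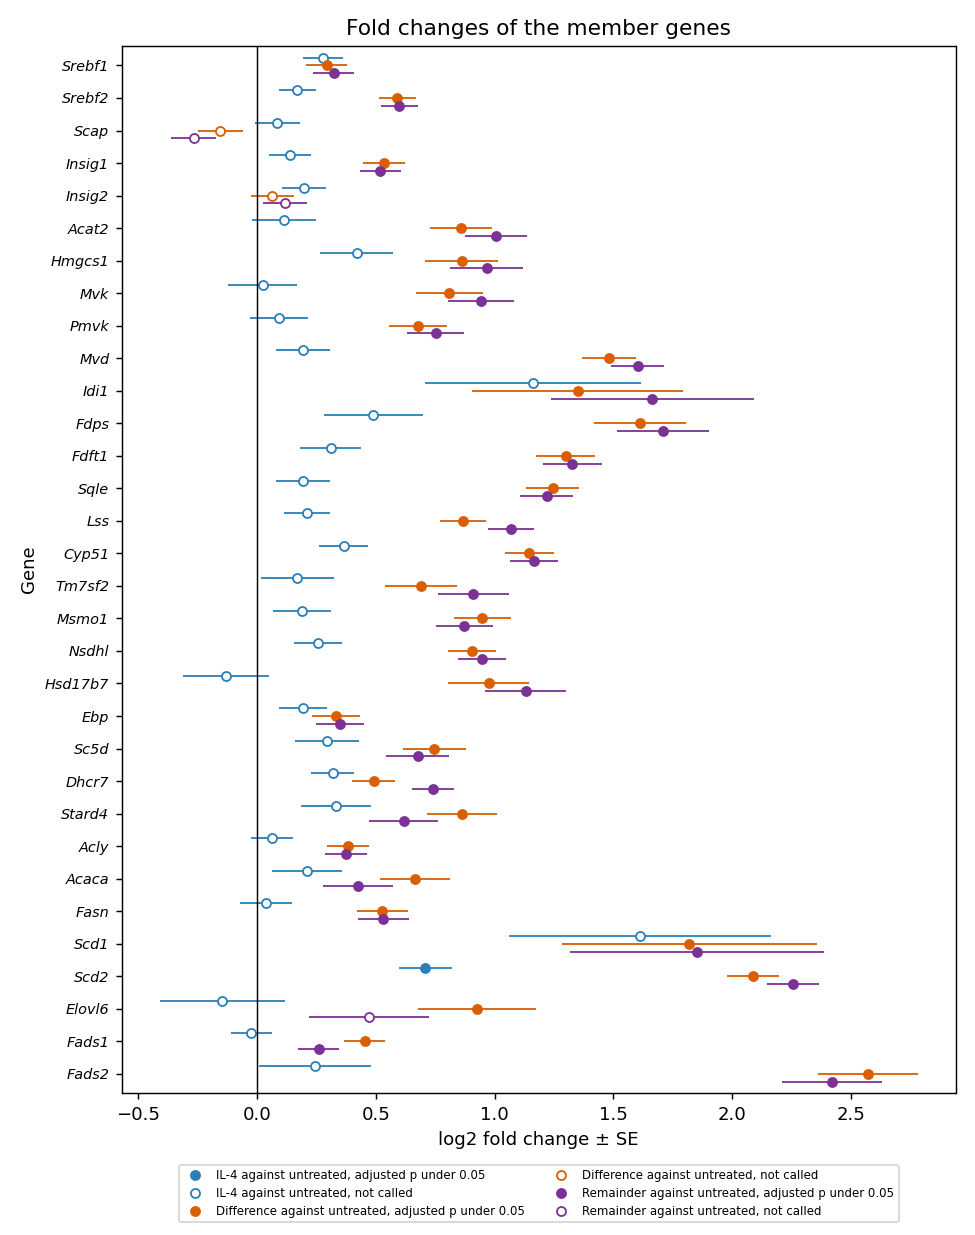
For each gene (vertical axis, by role) the points give the log2 fold change against untreated cells in IL-4 (blue), the difference (orange) and the remainder (purple), and the bars its standard error. Filled points passed an adjusted p of 0.05. The orange and purple points lie to the right of 0 in all rows but Scap, reaching 2.57 and 2.42 for Fads2, while the only filled blue point is Scd2 at 0.71.

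The 7 genes from acetoacetyl-CoA to farnesyl diphosphate were all called higher in both parts, with log2 fold changes between 0.68 and 1.61 in the difference and between 0.75 and 1.71 in the remainder. Mvd (chr8:122433601-122443422, minus strand, mm10, protein coding), the mevalonate diphosphate decarboxylase, had 24.9, 28.0 and 25.0 CPM in untreated cells. It had 71.5, 71.9 and 74.4 CPM in the difference and 90.2, 70.5 and 75.9 in the remainder, all far above the untreated values. The folds were 2.79 (log2 1.48 ± 0.11, adjusted p = 4.2e-07) and 3.04 (log2 1.60 ± 0.11, adjusted p = 1.6e-07).

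Fdps (chr3:89093588-89101959, minus strand), which makes farnesyl diphosphate, had the largest fold of this stretch among genes with over 1 CPM. Its level was 2.58, 2.06 and 1.63 CPM in untreated cells, 7.38, 5.80 and 6.11 in the difference and 7.02, 7.19 and 6.44 in the remainder. It was 3.06-fold higher in the difference (log2 1.61 ± 0.19, adjusted p = 3.4e-05) and 3.27-fold higher in the remainder (log2 1.71 ± 0.19, adjusted p = 1.6e-05), without overlap. Of its exon bases, 26.7% overlap another gene on the same strand, and the part of such reads in its level was not tested.

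Idi1 (chr13:8885501-8892451, plus strand), the isopentenyl diphosphate isomerase, was near the limit of detection. Raw counts were 4, 4 and 3 in untreated cells, 7, 9 and 11 in the difference and 11, 14 and 9 in the remainder. The log2 fold change was 1.35 ± 0.44 in the difference (adjusted p = 0.040) and 1.66 ± 0.43 in the remainder (adjusted p = 0.010), and 25.3% of its 50-base stretches also occur in another gene, mostly Gm13502. With the mouse as a block the adjusted p in the difference was 0.053, and DESeq2 gave 0.14.

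The other members of this stretch rose by less. Hmgcs1, which makes the HMG-CoA that enters the mevalonate route, went from 26.1 ± 3.28 CPM (SD, n = 3) in untreated cells to 47.4 ± 5.50 and 51.0 ± 11.8 in the difference and remainder. Of its exon bases, 12.1% overlap a gene on the other strand, and 11.6% of its 50-base stretches occur in another gene, mostly Gm48342. Acat2, the cytosolic acetoacetyl-CoA thiolase, reached folds of 1.81 and 2.01, although 39.1% of its 50-base stretches also occur in another gene, mostly Acat3. The kinases Mvk and Pmvk had folds of 1.75 and 1.60 in the difference and of 1.92 and 1.68 in the remainder. The Pmvk call in the difference was lost without mouse 3 (adjusted p = 0.062).

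All 11 genes from squalene synthesis to cholesterol were called higher in both parts, with medians of 0.90 and 0.95 on the log2 scale. Fdft1 (chr14:63145150-63179578, minus strand), the squalene synthase that commits farnesyl diphosphate to sterols, had 11.2, 11.1 and 10.9 CPM in untreated cells, 27.2, 25.0 and 29.6 in the difference and 27.5, 26.7 and 29.1 in the remainder. Its folds were 2.46 (log2 1.30 ± 0.12, adjusted p = 3.8e-06) and 2.51 (log2 1.33 ± 0.12, adjusted p = 2.6e-06). Neither part came near the untreated range, and 18.3% of the exon bases overlap a gene on the other strand. Of the Fdft1 50-base stretches, 26.5% also occur in another gene, mostly Ctsb.

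Sqle (chr15:59315077-59331192, plus strand), the squalene epoxidase and a rate-controlling step, had 21.9, 17.2 and 20.4 CPM in untreated cells. Its values were 45.4, 46.8 and 49.1 CPM in the difference and 40.1, 51.9 and 46.8 in the remainder, with folds of 2.37 (log2 1.25 ± 0.11, adjusted p = 2.1e-06) and 2.33 (log2 1.22 ± 0.11, adjusted p = 2.1e-06). Every value of the parts was above every untreated value. Cyp51, the lanosterol demethylase, followed with folds of 2.21 and 2.24, and Lss, which closes the sterol rings, with 1.82 and 2.10.

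In the late steps, the methylsterol oxidase Msmo1 rose from 53.6 ± 4.61 CPM (SD, n = 3) to 104 ± 8.42 in the difference and 98.2 ± 18.9 in the remainder. Nsdhl and Hsd17b7, which act with it in removing methyl groups from the sterol, rose 1.87-fold and 1.97-fold in the difference and 1.93-fold and 2.19-fold in the remainder. The sterol reductase Tm7sf2 and the desaturase Sc5d had folds of 1.61 and 1.68 in the difference and of 1.88 and 1.60 in the remainder. Of the Tm7sf2 exon bases, 12.1% overlap another gene on the same strand, and 9.87% of its 50-base stretches occur in another gene, mostly Vps51. Without mouse 3 the calls of Tm7sf2 (adjusted p = 0.11) and Sc5d (adjusted p = 0.058) were lost in the difference and that of Sc5d in the remainder (adjusted p = 0.087). The smallest change of the route belonged to Ebp, the sterol isomerase, with log2 fold changes of 0.33 ± 0.10 (adjusted p = 0.028) and 0.35 ± 0.10 (adjusted p = 0.020). The Ebp call was lost in the difference with the mouse as a block (adjusted p = 0.050) and in both parts without untreated mouse 1 (adjusted p = 0.12 and 0.088).

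Dhcr7, the reductase of the last step to cholesterol, had 27.7, 32 and 32 CPM in untreated cells, 40.8, 38.4 and 35.1 after IL-4, 40.4, 44.9 and 43.7 in the difference and 51.6, 49.7 and 52 in the remainder. The remainder lay above the difference in all 3 mice, and the untreated libraries lay below all others. Its log2 fold changes against untreated cells were 0.49 ± 0.09 (adjusted p = 0.0012) in the difference and 0.74 ± 0.09 (adjusted p = 3.0e-05) in the remainder. Stard4, a carrier of cholesterol between membranes, changed by 0.86 ± 0.15 (adjusted p = 0.00063) and 0.62 ± 0.15 (adjusted p = 0.0064). Without mouse 2 the Stard4 value in the remainder was 0.36 and its call was lost (adjusted p = 0.069).

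**Figure D4:**
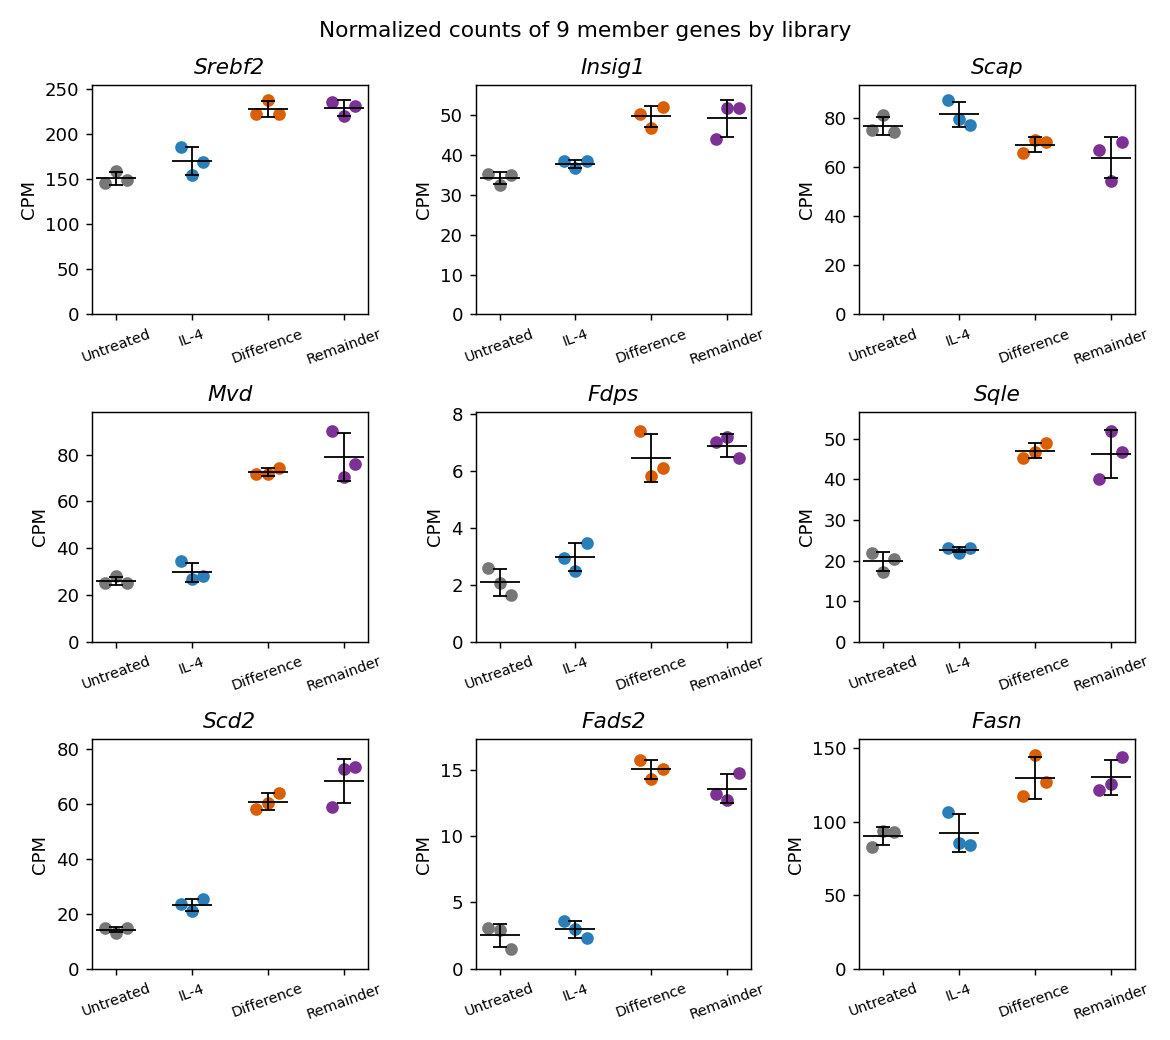
Points give the CPM (vertical axis, from 0) of 9 genes in each library, mouse 1 to 3 from left to right within a group, and bars the mean and SD of 3 mice. Mvd, Fdps, Sqle, Scd2 and Fads2 stand far above both untreated and IL-4 libraries in the difference and remainder. Srebf2, Insig1 and Fasn are higher by less, and Scap lies below its untreated values in both parts.

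The promoters of these genes were searched for the letters of known sites. RefSeq windows of 300 bases (GRCm38.p6, the assembly also called mm10), from 250 bases before to 50 after a gene's start, were matched to 25 of the 32 genes, and Fdps, Fdft1, Sqle, Stard4, Scd1, Scd2 and Fads1 were not matched. TCACNCCA, a core of the sterol regulatory element that SREBP binds, was found on either strand in 3 of the 25 (12%) and in 4.97% of the 27025 genes of that table. CCAAT, the box bound by NF-Y, which works beside SREBP at sterol genes, was found in 20 of 25 (80.0%) and in 41.1% of all genes. CANNTG, the E-box, was found in 18 of 25 (72.0%) and in 75.0% of all genes. A match of letters is not a measured site, and binding was not measured here.

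The 3 windows that hold TCACNCCA are shown because these genes are called higher in both parts and carry the letters of both the sterol element and the CCAAT box. They belong to Hmgcs1 (chr13:119690101-119690400, plus strand), Msmo1 (chr8:64733529-64733828, minus strand) and Srebf2 (chr15:82147019-82147318, plus strand), each 5′ to 3′ along its gene. Capitals mark TCACNCCA and CCAAT, the latter also as ATTGG where it lies on the other strand.
Hmgcs1: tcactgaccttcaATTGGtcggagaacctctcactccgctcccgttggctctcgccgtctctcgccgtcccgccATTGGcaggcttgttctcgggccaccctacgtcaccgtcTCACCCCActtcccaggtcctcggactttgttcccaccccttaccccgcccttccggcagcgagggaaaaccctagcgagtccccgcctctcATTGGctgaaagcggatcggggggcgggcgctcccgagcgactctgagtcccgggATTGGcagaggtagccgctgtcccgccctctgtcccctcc
Msmo1: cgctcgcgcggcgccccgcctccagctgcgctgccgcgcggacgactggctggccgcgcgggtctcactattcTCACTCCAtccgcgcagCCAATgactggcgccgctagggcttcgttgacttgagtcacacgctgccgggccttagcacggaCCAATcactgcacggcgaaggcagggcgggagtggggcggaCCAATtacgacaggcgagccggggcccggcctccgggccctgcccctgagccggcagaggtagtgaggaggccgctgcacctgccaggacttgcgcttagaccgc
Srebf2: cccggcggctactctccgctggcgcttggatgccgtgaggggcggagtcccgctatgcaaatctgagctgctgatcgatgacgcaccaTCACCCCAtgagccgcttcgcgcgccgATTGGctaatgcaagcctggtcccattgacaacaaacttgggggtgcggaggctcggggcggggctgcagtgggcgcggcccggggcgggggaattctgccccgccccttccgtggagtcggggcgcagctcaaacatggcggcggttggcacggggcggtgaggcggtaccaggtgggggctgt
Counted from the gene's start, the TCACNCCA match began at -137 in Hmgcs1, at -177 in Msmo1 and at -162 in Srebf2. The Hmgcs1 window held 4 CCAAT matches, that of Msmo1 held 3 and that of Srebf2 held 1, with the nearest at -160 in Msmo1 and at -135 in Srebf2. Against untreated cells these genes were 1.82-fold, 1.93-fold and 1.51-fold higher in the difference and 1.95-fold, 1.83-fold and 1.52-fold higher in the remainder.

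The 3 genes that lead to palmitate had smaller fold changes than the desaturases Scd1, Scd2 and Fads2. Acly, which frees cytosolic acetyl-CoA from citrate, had log2 fold changes of 0.38 ± 0.09 (adjusted p = 0.0060) in the difference and 0.37 ± 0.09 (adjusted p = 0.0062) in the remainder. Fasn, the fatty acid synthase, had 83.0, 93.7 and 93.1 CPM in untreated cells, 117, 145 and 127 in the difference and 121, 125 and 144 in the remainder, with folds of 1.44 (adjusted p = 0.0029) and 1.45 (adjusted p = 0.0023). Without mouse 3 the calls of Acly in the difference (adjusted p = 0.058) and of Acly and Fasn in the remainder (adjusted p = 0.074 and 0.066) were lost. Acaca, which makes malonyl-CoA, was called in both parts, but its remainder values (13.4, 15.1 and 16.2 CPM) overlapped the untreated ones (9.73, 9.71 and 13.9 CPM). The Acaca call in the remainder (adjusted p = 0.048) was lost in 18 of 26 alternative settings, among them the mouse as a block (adjusted p = 0.054). Of the Acaca 50-base stretches, 30.4% also occur in another gene, mostly Gm5182. The elongase Elovl6 was called in the difference (log2 0.93 ± 0.25, adjusted p = 0.015) and not in the remainder (0.47 ± 0.25, adjusted p = 0.19), and the values of the parts against each other were not called (adjusted p = 0.33). Its call in the difference was lost without mouse 3 (adjusted p = 0.14).

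Fads2 (chr19:10062765-10101746, minus strand), the desaturase that opens polyunsaturated fatty acid synthesis, had the largest fold changes of the 32 genes. It had 3.06, 2.96 and 1.51 CPM in untreated cells, 15.7, 14.3 and 15.1 in the difference and 13.2, 12.7 and 14.8 in the remainder. The folds were 5.94 (log2 2.57 ± 0.21, adjusted p = 8.2e-07) and 5.36 (log2 2.42 ± 0.21, adjusted p = 1.3e-06), and neither part came near the untreated or the IL-4 values. Fads1, the neighboring desaturase that acts later in the same route, was more abundant and changed far less, from 152 ± 6.70 CPM (SD, n = 3) to 208 ± 21.0 and 182 ± 11.6. Its call in the remainder (log2 0.26 ± 0.09, adjusted p = 0.041) was lost under total-count scaling (0.16, adjusted p = 0.14).

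Scd2 (chr19:44293674-44306864, plus strand), a stearoyl-CoA desaturase that makes monounsaturated fatty acids, had 14.8, 13.1 and 14.8 CPM in untreated cells, 58.0, 60.3 and 63.9 in the difference and 58.9, 72.5 and 73.3 in the remainder. It was 4.26-fold higher in the difference (log2 2.09 ± 0.11, adjusted p = 1.5e-08) and 4.78-fold higher in the remainder (log2 2.26 ± 0.11, adjusted p = 6.9e-09), the smallest adjusted p values among the members in both comparisons. Its relative Scd1 (chr19:44394455-44407879, minus strand), the main form of liver and fat, was barely detected, with raw counts of 2, 7 and 2 in untreated cells, 13, 13 and 12 in the difference and 18, 11 and 10 in the remainder. Scd1 was called higher in both (log2 1.82 ± 0.54, adjusted p = 0.024, and 1.85 ± 0.53, adjusted p = 0.020), and 4.56% of its 50-base stretches also occur in another gene, mostly Scd2. The part of such reads in its few counts was not tested. Without untreated mouse 1 or 3 its adjusted p was between 0.079 and 0.094 in the 2 comparisons.

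After IL-4 alone, 1 of the 32 genes was called higher and 0 lower. This is near the background, since 2.31% of all tested genes were called higher, 1.09% lower and 3.4% in either direction. The called gene was Scd2, with 23.4, 21.1 and 25.5 CPM after IL-4, all above the untreated values given before, and a fold of 1.63 (log2 0.71 ± 0.11, adjusted p = 0.0019). Leaving out mouse 3 kept the size (0.66) and lost the call (adjusted p = 0.13). The Scd2 level after IL-4 lay below that in both parts in all 3 mice.

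Most of the other genes leaned the same way after IL-4 without passing the test. The fitted fold change was above 0 in 29 of 32 genes, with a median of 0.20 on the log2 scale beside -0.00302 over all tested genes, of which 49.3% were above 0. All 3 IL-4 libraries lay above all 3 untreated libraries in 11 of the 32 genes, against 10.8% of tested genes. Cyp51 (log2 0.36 ± 0.10, adjusted p = 0.078) and Dhcr7 (0.32 ± 0.09, adjusted p = 0.080) came nearest to the threshold, and DESeq2 called both of them beside Scd2. The 4 adipocyte markers, genes of lipid-storing cells, summed to between 0 and 0.0645 CPM in untreated and between 0.256 and 0.584 CPM in IL-4 libraries, 0 to 0.0573 in the difference and 0.191 to 0.305 in the remainder, with Plin1 and Lep at 0 in all, and their part in these values was not tested.

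The remainder and the difference would differ by IL-4 if they are the Wnt3a cultures with and without it. Between them, 0 of the 32 genes were called by edgeR or by DESeq2, while edgeR called 5.25% of all tested genes. The median log2 difference, remainder minus difference, was 0.03. In 24 genes the 95% interval of the difference stayed within 0.5 on the log2 scale of 0, and in the others it reached further, to 1.09 for the sparse Idi1. The members with the smallest p were Dhcr7 (0.25 ± 0.09, adjusted p = 0.14), Lss (0.21 ± 0.09, adjusted p = 0.25) and Fads1 (-0.19 ± 0.09, adjusted p = 0.24), none of them called. For Scd2 the interval ran from -0.05 to 0.39, and for Fads2 from -0.54 to 0.24.

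Whether IL-4 acted differently with and without Wnt3a was tested as an interaction under each reading of the parts. When the difference was taken for Wnt3a and the remainder for both agents, 0 of the 32 genes were called by edgeR or DESeq2. Of all tested genes, edgeR called 0.105%. With the parts exchanged, 2 of the 32 were called, both lower, beside 7.33% of all tested genes. They were Scd2 (-0.88 ± 0.15, adjusted p = 0.0020) and Dhcr7 (-0.57 ± 0.13, adjusted p = 0.013), and DESeq2 also called 2. On the first reading Scd2 was at -0.54 ± 0.15 (adjusted p = 0.18) and Dhcr7 at -0.07 ± 0.13 (adjusted p = 0.89), so the call depended on the reading. The sign was the same, but both interactions subtract the same effect of IL-4 alone, so the shared sign is not independent support.

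The levels of the genes differed widely when counts were divided by exon length. In untreated cells the mean per kilobase of exon was highest for Acly, with 33.9 ± 3.54 CPM per kb (SD, n = 3), and Fads1, with 31.5 ± 1.39, which did not differ beyond their spread. Ebp (22.4 ± 2.31) and Srebf2 (21.0 ± 0.98) came next and also lay within their spread of each other. Srebf1 (14.9 ± 0.61) and Mvd (14.0 ± 0.96) followed, and the median of the 32 genes was 4.43. In the difference and remainder the median was 8.52 and 8.68, and Mvd stood at 39.1 ± 0.84 and 42.4 ± 5.49, close to Acly at 44.2 ± 2.16 and 43.9 ± 2.28. Scd2 moved from 2.61 ± 0.18 to 11.1 ± 0.54 and 12.5 ± 1.47 CPM per kb, above Fads2, which moved from 0.76 ± 0.26 to 4.56 ± 0.22 and 4.11 ± 0.33. Idi1 (0.0628 ± 0.0099) and Scd1 (0.0466 ± 0.039) were the lowest in untreated cells. The sharing of sequence with other genes was under 5% of 50-base stretches in 24 of the 32 genes.

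Genes that neighbor these pathways were read from 4 further lists with 53 tested genes, of which 11 were called higher and 7 lower in the difference and 15 higher and 7 lower in the remainder. Of all tested genes, 11.8% were higher and 11.4% lower in the difference and 13.6% and 11.7% in the remainder, so the counts of lower genes lie near the background. The 12 genes that process SREBP or sense sterol were mostly not called, with Erlin1, part of a complex that degrades sterol-regulated proteins, higher in the difference (log2 0.28 ± 0.08, adjusted p = 0.026) and Rnf145, a ubiquitin ligase, lower in the remainder (-0.40 ± 0.08, adjusted p = 0.0025). Their median log2 fold changes were 0.00328 and 0.07.

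In the list of LXR targets and sterol disposal, 2 of 12 genes were called higher and 4 lower in the difference, and 5 higher and 4 lower in the remainder, beside 11.8% and 11.4% of all genes in the difference and 13.6% and 11.7% in the remainder. The count of higher genes in the difference lies near its background. Lipa, the lysosomal acid lipase that frees cholesterol from its esters, fell by 0.91 ± 0.10 on the log2 scale in the difference (adjusted p = 1.7e-05) and was at -0.93 ± 0.10 in the remainder (adjusted p = 1.1e-05). Cyp27a1, which makes an oxysterol ligand of LXR, had 88.4, 93.7 and 78.7 CPM in untreated cells, 32.7, 46.0 and 46.8 in the difference and 38.2, 47.8 and 38.5 in the remainder, and changed by -1.06 ± 0.15 (adjusted p = 0.00013) and -1.07 ± 0.15 (adjusted p = 9.9e-05). Mylip, the LXR-induced ligase that degrades lipoprotein receptors, changed by -0.71 ± 0.11 (adjusted p = 0.00023) and -1.12 ± 0.11 (adjusted p = 3.2e-06). Ch25h, which makes another oxysterol, had only 13, 8 and 13 raw counts in the remainder against 40, 24 and 36 in untreated cells (log2 -1.46 ± 0.31, adjusted p = 0.0026). Other genes of the list went the other way. Smpdl3a had 563 ± 11.6 CPM (SD, n = 3) in untreated cells, 823 ± 69.6 in the difference and 766 ± 31.1 in the remainder. Npc2 had 2322 ± 189, 3060 ± 111 and 3725 ± 456 CPM in the same order. Abca1 went from 150 ± 31.9 CPM to 216 ± 28.0 in the difference, and its remainder (167 ± 59.7) overlapped untreated cells.

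The sterol exporter Abcg1 went both ways. It had 208, 264 and 252 CPM in untreated cells, 376, 365 and 346 after IL-4, 152, 161 and 146 in the difference and 210, 171 and 240 in the remainder. It was the LXR list's call in IL-4 (log2 0.59 ± 0.11, adjusted p = 0.0091), was lower in the difference (-0.65 ± 0.12, adjusted p = 0.00087) and was not called in the remainder (-0.22 ± 0.11, adjusted p = 0.18). The remainder was higher than the difference (0.43 ± 0.12, adjusted p = 0.044), a call that was lost with the mouse as a block (adjusted p = 0.079). Mylip was lower in the remainder than in the difference (-0.42 ± 0.11, adjusted p = 0.039).

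Among 18 other genes of fatty acid and glycerolipid synthesis, 6 were called higher and 2 lower in the difference, and 5 higher and 1 lower in the remainder. Of all tested genes, 11.8% were called higher in the difference and 13.6% in the remainder. The counts of lower genes were at or below the 11.4% and 11.7% of all genes. Acsl1, which activates long-chain fatty acids to their CoA forms, had 59.2, 62.3 and 62.0 CPM in untreated cells, 332, 329 and 262 in the difference and 246, 307 and 229 in the remainder. Its folds were 5.03 (log2 2.33 ± 0.12, adjusted p = 1.4e-08) and 4.27 (log2 2.09 ± 0.12, adjusted p = 2.6e-08), and the 3 IL-4 values (59.7, 61.7 and 52.7 CPM) stayed beside the untreated ones. Acss2, which makes acetyl-CoA from acetate, rose 2.93-fold in the difference (adjusted p = 1.1e-06) and 1.94-fold in the remainder (adjusted p = 9.3e-05), and the remainder was lower than the difference (log2 -0.59 ± 0.13, adjusted p = 0.013).

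Lpin1, a phosphatidate phosphatase of triglyceride synthesis, differed between the conditions in another way. It had 31.4, 34.9 and 37.5 CPM in untreated cells, 52.4, 47.5 and 54.5 after IL-4, 21.3, 23.9 and 24 in the difference and 33.0, 34.5 and 36.2 in the remainder. It rose with IL-4 (log2 0.57 ± 0.09, adjusted p = 0.0029), was lower in the difference (-0.58 ± 0.10, adjusted p = 0.00055) and was higher in the remainder than in the difference (0.58 ± 0.10, adjusted p = 0.0027). Mid1ip1, a partner of acetyl-CoA carboxylase, was lower in IL-4 (-0.37 ± 0.09, adjusted p = 0.034), in the difference (-0.31 ± 0.09, adjusted p = 0.023) and in the remainder (-0.79 ± 0.09, adjusted p = 1.7e-05).

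Of the 11 other isoprenoid and sterol genes, 2 were called higher and 1 lower in the difference, and 5 higher and 1 lower in the remainder. Over all tested genes, 11.8% were higher and 11.4% lower in the difference and 13.6% and 11.7% in the remainder. The called share in the difference lies near the 23.2% of all genes. Tmem97, a membrane protein that sterol depletion is known to raise, changed by 0.64 ± 0.14 (adjusted p = 0.0034) and 0.80 ± 0.14 (adjusted p = 0.00054). Of its 50-base stretches, 20.8% also occur in another gene, mostly Gm5809. Fntb, a subunit of the enzyme that attaches farnesyl groups to proteins, was called in the remainder (0.55 ± 0.13, adjusted p = 0.0057). Por, which passes electrons to Cyp51 and other cytochromes, changed by -0.45 ± 0.10 (adjusted p = 0.0065) and -0.57 ± 0.10 (adjusted p = 0.00098), the opposite direction to Cyp51 itself.

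**Figure D5:**
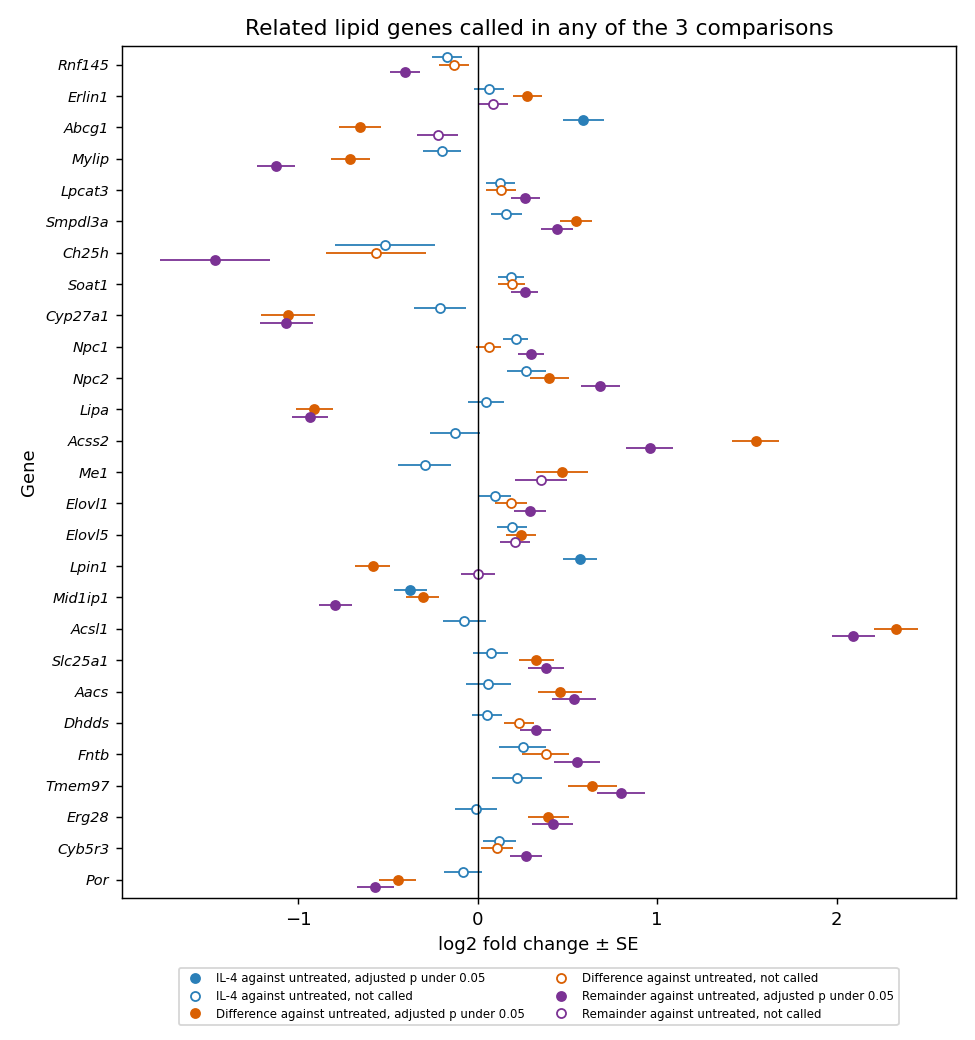
For each gene of the 4 further lists that was called in any of the 3 comparisons with untreated cells, the points give the log2 fold change (horizontal axis) in IL-4 (blue), the difference (orange) and the remainder (purple), and the bars its standard error, with filled points past an adjusted p of 0.05. Acsl1 lies furthest to the right at 2.33 and 2.09, Ch25h, Mylip, Cyp27a1 and Lipa furthest to the left, and Abcg1 and Lpin1 have a blue point to the right and an orange point to the left of 0.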

How the data were processed

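Raw counts per gene were deposited by the authors with no normalization. According to the methods and the submitters' processing notes, reads were trimmed (Trimmomatic 0.36), mapped to mm10 (STAR 2.6.0, SAMtools 1.9) and counted (HTSeq 0.11.1). The strand setting was not given in the sources used here, and UCSC genes are named in the methods, although rows carry Ensembl identifiers. A symbol was found for 48058 of 48526 rows. All columns were used, and 0 rows named no gene. Gene positions, lengths, overlaps and the sharing of 50-base stretches were taken from GENCODE for mm10, and promoters from RefSeq.

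Counts of the 12 libraries (Untreated, IL4, difference, remainder) with at least 10 counts in at least 3 libraries were fitted with edgeR 4.0.16 in R 4.3.3 (TMM, quasi-likelihood test, no term for the mouse), with Benjamini-Hochberg adjustment over 12421 genes and a threshold of 0.05. The difference and remainder are whole counts computed from the deposited columns. This test was checked on simulated data. Intervals are 95%. DESeq2 1.42.0, other scalings, filters and thresholds, the groups compared alone, thinned counts, the mouse as a block, left-out mice and libraries, and the deposited columns as labelled were alternatives. The labels give each group the same 3 mice, which pairs the samples. Deviations of same-mouse libraries from group means correlated between -0.57 and 0.54 in 18 pairs, with 6 over 0.1. Members, gene lists and rules were chosen with earlier results of these data known. Values by sample are given for up to 8 members per comparison with the largest absolute log2 fold change among those called and moved the same way in 3 mice, for up to 3 genes of each further list by that rule, and beside these for Srebf2, Insig1, Scap, Dhcr7, Fasn, Acaca and other genes named after their values were seen. A gene of the list of other isoprenoid and sterol genes is not reported here and was left out of that list's counts.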

Additional observations from a re-analysis of the deposited data

Results flagged for a closer look

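In 2 members the effect of IL-4 differed between cells with and without Wnt3a by the interaction test, when the remainder is read as Wnt3a and the difference as Wnt3a+IL4. This count is below the 7.33% of all tested genes called in the same test. For Scd2 the interaction was -0.88 on the log2 scale and for Dhcr7 -0.57. With the parts exchanged neither was called. With the deposited columns as labelled Scd2 was called at -0.68 ± 0.14 (SE, adjusted p = 0.034), beside 142 of all tested genes. That setting cannot decide the question, because both columns hold the same parts and 0 of all genes were called between them. Its interaction is then close to the effect of IL-4 alone with the sign reversed. Leaving out mouse 3 gave 0 called members, beside 265 of all tested genes where the full fit called 910. Leaving out mouse 2 gave 5 (4 lower and 1 higher), beside 1459 of all tested genes.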

How the results depend on the processing

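The number of members called in IL-4 was 1 as reported, beside 422 of all tested genes. It was 3 with DESeq2 (559 of all genes) and 2 with all genes of at least 1 count (812). It was 0 when a log2 change of 1 or more in size was required (133) and 4 with the deposited columns as labelled (708). That last fit treats columns that share both parts as separate libraries, which they are not. It ranged from 0 to 2 when a mouse or library was left out, and without mouse 3 it was 0 (77 of all genes). In the difference and the remainder it was 30 and 29 as reported, beside 2884 and 3137 of all genes. With a log2 fold change of at least 1 it fell to 9 and 12, beside 842 and 917. It ranged from 20 to 30 and from 20 to 29 with a mouse or library left out. It was lowest without mouse 3, where 1220 and 1375 of all genes were called. Between remainder and difference it was 0 under every alternative, beside 97 to 1454 of all genes in those that used the parts. With the columns as labelled that 0 decides nothing, since both hold the same parts and 0 of all genes were called. In the interaction with the difference as Wnt3a it was 0 as reported, beside 13 of all genes. It was 1 there with the columns as labelled, beside 142, where the shared parts again leave the question undecided. In the other interaction it was 2 as reported, beside 910 of all genes. It was 1 at an adjusted p of 0.01 (472 of all genes) and 0 with a log2 fold change of at least 1 (423). With a mouse or library left out it was between 0 and 5, beside 265 of all genes without mouse 3 and 1459 without mouse 2. With the mouse as a replicate block, 1, 28, 28, 0, 0 and 2 members were called in the 6 tests. Beside them, 391, 2659, 2858, 556, 11 and 854 of all genes were called. Under that block Idi1 and Ebp lost the call in the difference and Acaca in the remainder. Of the 59 calls of members against untreated cells in the parts, 59 stayed above 0 in each alternative that gave a value (23 for Idi1, 25 for Scd1 and 26 for the others) and 38 kept their call in all but the fold minimum. Total-count scaling moved the call of all genes in the difference from 1462 higher and 1422 lower to 1131 and 2238, and in the remainder from 1687 and 1450 to 1293 and 2342. Scap was called lower in both parts under total-count scaling, as given above. In the Wnt3a and Wnt3a+IL4 columns as labelled it was also called lower (adjusted p = 0.023 and 0.014). Those columns share both parts, so these are neither calls of a part nor independent of each other. It was also called lower in the remainder with a filter of at least 1 CPM (adjusted p = 0.047) and without remainder mouse 3 (adjusted p = 0.036). Calls of Idi1, Scd1, Ebp, Srebf1, Acaca, Fads1 and Elovl6 were lost when single libraries or mice were left out, and those of Pmvk, Tm7sf2, Sc5d, Acly, Fasn and Stard4 when a mouse was left out. The causes were not tested. With 3 mice a group and few counts for Idi1 and Scd1, small changes could not be resolved.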
